A study of Mus musculus with 9 samples.

Results

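The transcripts of 10 genes of the renal vessel wall were followed in whole mouse kidney: the endothelial surface and junction genes Pecam1, Cdh5, Plvap, Emcn and Ehd3, the VEGF receptor genes Kdr and Flt1, their ligand gene Vegfa, and the leukocyte adhesion genes Vcam1 and Icam1. They were chosen by name, as markers of renal endothelium, VEGF signaling and adhesion, from the 55385 genes of the count table, and all 10 were present and passed the filter on low counts. Kidneys came from male C57BL/6 mice (C57BL/6J in the methods of the study), 8 to 10 weeks old, in 3 groups of 3 mice with one library each: Control mice, untreated; HN (hyperuricemic nephropathy) mice, which received potassium oxonate at 2.4 g/kg together with adenine at 0.16 g/kg; and PEC mice, which received these agents and the flavonoid pectolinarigenin (PEC, 25 mg/kg). The pair of inducing agents was eaten on alternate days and PEC taken orally each day, and all dosing lasted 4 weeks. Adenine and oxonate were thus shared by HN and PEC mice, and none of the 3 groups received PEC alone. By the labels, Control mice are numbers 2, 4 and 5, HN mice 4, 8 and 12, and PEC mice 1, 2 and 3, and Control samples, labelled as control by disease state, have HN in their titles.

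Vegfa encodes the secreted growth factor that podocytes and tubule cells of the kidney make for the capillaries next to them. Kdr (VEGF receptor 2) carries most of its signal into endothelial cells, whereas Flt1 (VEGF receptor 1) binds it tightly, signals weakly and also exists as a soluble form that holds the ligand back. Activated endothelium displays Vcam1 and Icam1, which bind leukocyte integrins, and Vcam1 is also known to be made by injured tubule cells. In bulk kidney RNA, fewer endothelial cells and less RNA per endothelial cell cannot be told apart.

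Vegfa fell to 0.448 of its Control level in HN mice and was 2.49-fold higher in PEC than in HN mice. Its level in PEC mice lay just above that of Control, but this difference was not called and changed sign with GC content removed. Its receptors Kdr and Flt1 fell to 0.499 and 0.567 of Control in HN mice, and in PEC mice they were at 0.370 and 0.417 of Control. Their calls in HN mice were lost on library totals and in limma on the deposited FPKM, whereas those in PEC against Control mice held. Vcam1 was 24.98-fold and Icam1 3.18-fold higher in HN than in Control mice, and with PEC Vcam1 was lower than in HN mice while the values of Icam1 overlapped with those of HN mice. The call of Vcam1 between PEC and HN mice was lost with gene length and GC content removed together. The 5 endothelial surface and junction genes differed by less than 1.5-fold between HN and Control mice on the scale used here, and the direction of 4 of them depended on how the libraries were scaled.

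Sequence just upstream of the start site was available from RefSeq (GRCm38.p6) for 6 of the genes, and 4 are shown because they belong to the ligand, the pair of receptors that fell together in HN mice, and an adhesion gene that rose. Each line gives the 250 bases before the start, 5′ to 3′ on the strand of the gene, and capitals mark the short motifs spelled out after the sequences, which were searched on both strands. The windows are chr17:46032378-46032627 (minus strand) for the upstream start of Vegfa, chr5:75978456-75978705 (minus) for Kdr, chr5:147726012-147726261 (minus) for Flt1 and chr9:21015690-21015939 (plus) for Icam1.
Vegfa: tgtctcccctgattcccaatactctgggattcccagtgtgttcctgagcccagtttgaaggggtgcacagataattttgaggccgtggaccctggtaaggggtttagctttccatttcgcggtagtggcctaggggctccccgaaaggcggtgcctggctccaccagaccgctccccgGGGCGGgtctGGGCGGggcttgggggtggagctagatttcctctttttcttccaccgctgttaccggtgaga
Kdr: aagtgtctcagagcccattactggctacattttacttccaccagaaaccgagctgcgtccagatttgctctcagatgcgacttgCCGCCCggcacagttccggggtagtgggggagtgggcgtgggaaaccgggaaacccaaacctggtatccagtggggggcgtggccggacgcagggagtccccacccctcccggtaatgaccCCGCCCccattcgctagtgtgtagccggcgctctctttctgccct
Flt1: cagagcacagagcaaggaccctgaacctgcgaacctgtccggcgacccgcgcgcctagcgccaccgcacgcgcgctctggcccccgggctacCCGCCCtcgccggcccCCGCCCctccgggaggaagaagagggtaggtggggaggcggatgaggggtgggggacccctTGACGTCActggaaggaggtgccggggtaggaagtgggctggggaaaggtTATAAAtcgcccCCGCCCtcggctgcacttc
Icam1: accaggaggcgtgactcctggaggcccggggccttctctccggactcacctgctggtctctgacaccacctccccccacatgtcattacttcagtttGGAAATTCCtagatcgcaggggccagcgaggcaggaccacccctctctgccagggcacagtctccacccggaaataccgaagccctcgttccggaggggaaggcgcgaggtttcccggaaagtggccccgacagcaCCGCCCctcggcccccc

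All 4 windows, but not those of Emcn and Ehd3, the others of the 6 genes, held at least one GC box (GGGCGG, which reads CCGCCC where it lies on the other strand), a motif found in 32.7% of 32851 such windows of mouse genes. Vegfa had a pair of them, 72 to 67 and 62 to 57 bases before the start. Kdr also had 2, and Flt1 had 3. Flt1 alone among these 4 windows held TATAAA, 31 to 26 bases before the start, and TGACGTCA, 81 to 74 bases before it, which occur in 12.4% and 1.55% of all windows. Icam1 held GGAAATTCC, which fits GGANNTTCC, 153 to 145 bases before the start, against 3.59% of all windows. ACGTG, found in 16.6% of all windows, was in none of the 4 windows, but the window of a second, downstream start of Vegfa (chr17:46025164-46025413, not printed) held it on the other strand, 211 to 207 bases before that start. These matches describe letters only, and binding was not measured in this data set.

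**Figure D1:**
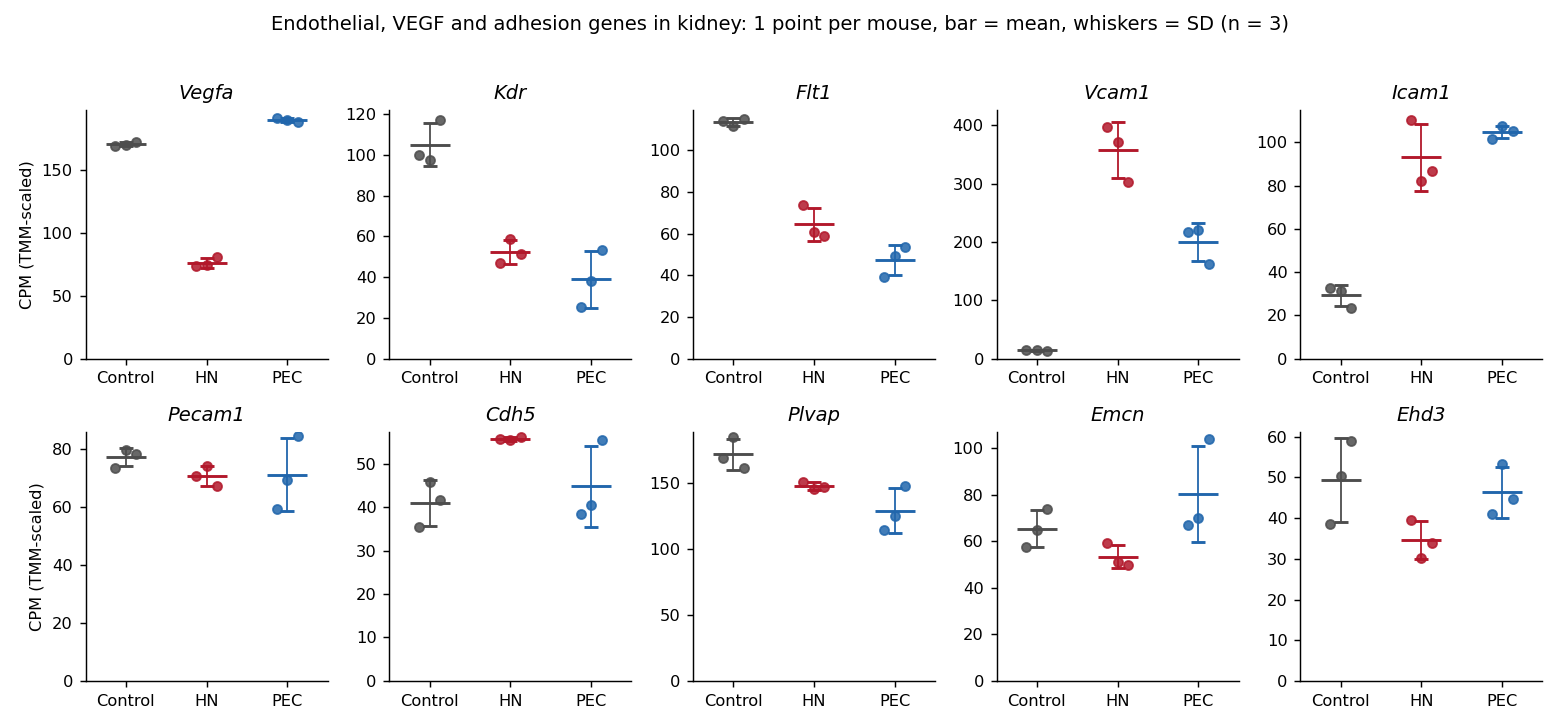
Levels of the 10 genes in CPM (counts-per-million, scaled by TMM), with 1 point per mouse, the mean as a bar and the SD as whiskers (n = 3). Vegfa sits at 169 to 172 in Control, 73.3 to 80.6 in HN and 188 to 191 in PEC mice, whereas the points of Kdr and Flt1 in HN and PEC mice all lie below those of Control mice.

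Between 57714111 and 81069646 reads per library were counted on genes, and values are given as CPM (counts-per-million) after scaling by edgeR's TMM factors, which set the bulk of genes equal between libraries. These factors were 0.778 to 0.832 in Control, 1.15 to 1.22 in HN and 1.02 to 1.05 in PEC libraries, and on library totals alone the median log2 fold change of all genes was 0.56 between HN and Control, -0.21 between PEC and HN and 0.40 between PEC and Control, where under TMM it was -0.00, -0.02 and 0.04. Fold changes below are relative to the TMM scale, and a gene was called at an adjusted p of at most 0.05 from edgeR's quasi-likelihood test with Benjamini-Hochberg adjustment over 21392 genes. The labels do not say whether the mice of a group were handled separately, and p-values then measure the spread between these libraries. The PEC libraries stood apart in a further way, since rRNA loci took 0.296% to 1.72% of their counts and at most 0.00419% in the other groups. The labels give no batch. Any difference in how the PEC libraries were made cannot be told apart from PEC itself in the comparisons with PEC mice. The alternative fits below use these same libraries and so do not separate them either. Mitochondrial genes took 12.9% to 16.3% of the counts in Control, 6.01% to 6.34% in HN and 10.3% to 13.6% in PEC libraries. In PEC against HN mice, the change of a gene also followed its length: genes within 20% of the length of Flt1 (14943 bases) had a median log2 fold change of -0.49, and those within 20% of the length of Plvap (2205 bases) had one of 0.18, against -0.02 over all genes tested. In PEC against Control mice the same medians were -0.35 and 0.20, against 0.04 over all genes, and in HN against Control mice they were 0.06 and -0.04. For each of the 10 genes, the difference between PEC and HN mice is therefore also given with this dependence removed.

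Between HN and Control mice, 7 of the 10 genes were called, 3 higher and 4 lower, where 41.8% of all genes tested were called (21.1% higher and 20.7% lower). On library totals 5 of the 10 were called higher and 1 lower, where 45.1% of all genes were called higher and 7.97% lower. The values of the groups did not overlap for 7 of the 10 genes, against 55.4% of all genes tested. The fold rule of the study (at least 1.5-fold, p at most 0.05) was applied here to the unadjusted p of the edgeR fit. For its RNA-seq the study states neither the test nor whether p was adjusted, so the counts here are not those of the study. By this rule 5 of the 10 genes passed, against 36.2% of all genes. The median log2 fold change of the 10 genes was -0.26, against -0.00 over all genes, and ranged from -1.16 for Vegfa to 4.64 for Vcam1. Between PEC and HN mice 4 were called, 2 in each direction (38.9% of all genes, with 18.3% higher and 20.6% lower, and 12.1% and 28.2% on library totals, where 1 of the 10 was higher and 4 were lower), 3 passed the fold rule (33.2%), and 5 did not overlap (55.5%). Without PEC mouse 3 the calls in that comparison came to 7, with 2 higher and 5 lower, where 7682 of the 21392 genes were called, 3641 higher and 4041 lower. Between PEC and Control mice 5 were called, 2 higher and 3 lower (46.5% of all genes, with 22.9% higher and 23.5% lower, and 36.4% and 13.3% on library totals, where 5 of the 10 were higher and 2 lower), 4 passed the fold rule (40.6%), and 6 did not overlap (57.3%). The comparisons with HN share the HN libraries, and those with Control share the Control libraries.

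The ligand came first. Vegfa (ENSMUSG00000023951, chr17:46016993-46032369, minus strand, GRCm38) had 169, 169.6 and 172 CPM in Control mice 2, 4 and 5, 73.3, 74.7 and 80.6 CPM in HN mice 4, 8 and 12, and 191, 189.6 and 188 CPM in PEC mice 1, 2 and 3. The HN values lay far below both other groups, the values within each group were close together, and the PEC values lay just above those of Control. Vegfa fell by 1.16 on the log2 scale in HN mice (standard error 0.07, adjusted p = 3.86e-06, edgeR). In PEC mice it was 2.49-fold higher than in HN mice (log2 fold change 1.31, standard error 0.07, adjusted p = 1.01e-05, edgeR). Both calls held in all 23 alternatives, with log2 fold changes from -1.28 to -0.60 and from 1.06 to 1.44. The share of mitochondrial reads was likewise low in HN libraries, and on library totals taken without these genes the differences were -0.73 and 1.21. With the dependence on gene length removed, the difference between PEC and HN mice was 1.40. The difference between PEC and Control mice was 0.16 (standard error 0.07, adjusted p = 0.0859, edgeR). It was called in 7 of the 23 alternatives, with 0.51 on library totals (adjusted p = 0.000655, edgeR), but it was -0.11 with the dependence on GC content removed.

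The cells that make Vegfa were checked by their markers. The sum of 5 podocyte markers was 375 to 382 CPM in Control, 351 to 413 in HN and 392 to 445 in PEC mice, and none was at 0. Of them, the actin-binding Synpo was called higher in HN mice (log2 fold change 0.82, adjusted p = 0.00313, edgeR) and 0 were called lower. Between PEC and HN mice 1 was called higher, Podxl, the sialomucin podocalyxin that endothelium also makes (0.31, adjusted p = 0.0143, edgeR), and 0 lower. The 6 tubule markers summed to 11678 to 13038 CPM in Control, 5638 to 6517 in HN and 7089 to 8901 in PEC mice. Of these 5 were called lower in HN mice and 3 higher in PEC than in HN mice. Over all genes tested, 21.1% were called higher and 20.7% lower in HN against Control mice. In PEC against HN mice these shares were 18.3% and 20.6%. The podocyte counts lie near these shares. The part of podocytes and tubule cells in the change of Vegfa was not tested.

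The receptor genes lie on the same chromosome. Kdr (ENSMUSG00000062960, chr5:75932827-75978458, minus strand) had 100.1, 97.7 and 117 CPM in Control, 46.9, 58.9 and 51.5 CPM in HN and 25.4, 38.0 and 53.4 CPM in PEC mice. All HN and PEC values lay below all Control values, and the PEC mice spread widely, with PEC mice 1 and 2 below and PEC mouse 3 within the HN range. Kdr fell by 1.00 on the log2 scale in HN mice (standard error 0.23, adjusted p = 0.00714, edgeR). On library totals the difference was -0.44 and was not called (adjusted p = 0.140, edgeR), and in limma on the deposited FPKM it was -0.41 (adjusted p = 0.0919). On totals without mitochondrial genes it was -0.57 and also not called (adjusted p = 0.0749, edgeR). Against HN, the PEC mice differed by -0.43 (standard error 0.23, adjusted p = 0.173, edgeR), by -0.70 without PEC mouse 3 (adjusted p = 0.0184) and by -0.05 with the dependence on gene length removed. Leaving out 1 mouse at a time gave -0.70 to -0.20. Of the 3 limma fits on the deposited FPKM, 2 called this difference, at -0.69 and -0.58 (adjusted p = 0.032 for the latter). The limma fit without the filter on low FPKM did not call it. Genes within 20% of its length (9986 bases) had a median of -0.33 in that comparison. Against Control, Kdr was lower in PEC mice, at -1.43 on the log2 scale (standard error 0.23, adjusted p = 0.00102, edgeR) and at -1.09 with gene length removed, and this call held in all 23 alternatives.

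Flt1 (ENSMUSG00000029648, chr5:147561604-147726011, minus strand) had 114, 111 and 115 CPM in Control, 73.5, 60.5 and 59.0 CPM in HN and 39.2, 49.4 and 53.3 CPM in PEC mice. The 3 groups did not overlap, with Control on top and PEC at the bottom. It fell by 0.82 on the log2 scale in HN mice (standard error 0.13, adjusted p = 0.000803, edgeR), whereas on library totals the difference was -0.26 (adjusted p = 0.0906, edgeR). In the 3 limma fits on the deposited FPKM this difference was -0.29 to -0.25 and not called (adjusted p from 0.0574 to 0.0970). It fell by 0.44 further from HN to PEC mice (standard error 0.13, adjusted p = 0.0225, edgeR), but the difference was 0.07 with the dependence on gene length removed (adjusted p = 0.721, edgeR). Genes of its length had a median of -0.49 in that comparison. Without HN mouse 4 or PEC mouse 1 it was -0.34 and -0.32, and neither was called (adjusted p = 0.0801 and 0.0617, edgeR). In all the call was lost in 7 of the 23 alternatives, among them upper-quartile factors (-0.32, adjusted p = 0.0579) and scaling to 18 other endothelial markers (-0.34, adjusted p = 0.0832, edgeR). Between PEC and Control mice its difference was -1.26 on the log2 scale (standard error 0.13, adjusted p = 7.41e-05, edgeR), and this call held in all 23 alternatives. With gene length removed it was -0.80, close to the -0.86 of HN against Control mice in the same fit. The table counts all Flt1 transcripts together, and the soluble form was not measured apart from the full-length one.

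Ratios within a library do not depend on its scaling. For each Kdr read, Control mice had 1.69, 1.74 and 1.47 Vegfa reads, HN mice 1.56, 1.27 and 1.57, and PEC mice 7.55, 4.99 and 3.52. Control and HN overlapped, and every PEC library lay above both. For each Flt1 read, Control mice had 1.48, 1.52 and 1.496 Vegfa reads, HN mice 0.998, 1.23 and 1.37, and PEC mice 4.89, 3.84 and 3.52, with no overlap between the 3 groups. The mean ratio to Kdr was 3.65-fold and that to Flt1 3.40-fold higher in PEC than in HN mice. The exact permutation test gives p = 0.1 for each, two-sided, which is the smallest value that 3 against 3 libraries allow. Flt1 reads per Kdr read ranged from 0.980 to 1.14 in Control, 1.03 to 1.57 in HN and 0.999 to 1.55 in PEC mice, and the groups overlapped. A dependence on gene length, seen in the PEC libraries, also acts on these ratios, since Vegfa (4766 bases) is shorter than Kdr and Flt1.

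**Figure D2:**
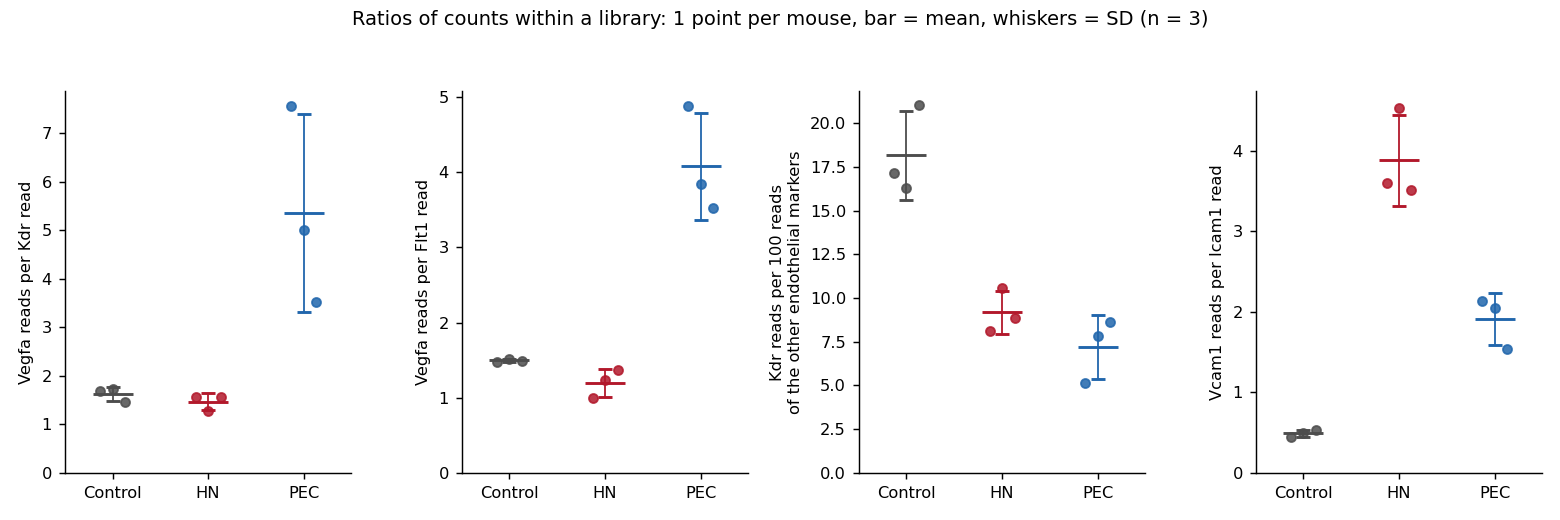
Ratios of read counts within each library, with 1 point per mouse, the mean as a bar and the SD as whiskers (n = 3): Vegfa per Kdr read, Vegfa per Flt1 read, Kdr per 100 reads of 18 other endothelial markers, and Vcam1 per Icam1 read. Vegfa per receptor read is at most 1.74 in Control and HN mice and at least 3.52 in PEC mice.

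The 18 other endothelial markers (among them Tie1, Erg, Cldn5 and Nos3) gave a scale for the amount of endothelial RNA. They summed to 557 to 599.6 CPM in Control, 557 to 582 in HN and 486 to 619 in PEC mice, so that the groups overlapped, and none was at 0. On library totals, without TMM, their sums were 434 to 499 CPM in Control, 663 to 712 in HN and 496 to 647 in PEC mice. Per 100 of their reads, Kdr gave 16.3 to 21.0 reads in Control, 8.13 to 10.6 in HN and 5.12 to 8.63 in PEC mice. Flt1 gave 18.6 to 20.6, 10.1 to 12.7 and 7.92 to 10.2 reads, and Vegfa 28.3 to 30.8, 12.7 to 13.9 and 30.3 to 39.0 reads. On this scale the receptors of HN and PEC mice again lay below Control without overlap, and HN and PEC overlapped. Pecam1 gave 12.6 to 14.0, 11.52 to 13.3 and 11.99 to 14.3 reads per 100, with all groups overlapping. Cdh5 gave 6.05 to 7.63, 9.62 to 9.93 and 7.77 to 8.96 reads, without overlap. Plvap gave 28.9 to 30.8, 25.2 to 26.1 and 23.1 to 25.7 reads, with HN and PEC below Control. Emcn gave 9.89 to 13.2, 8.56 to 10.2 and 13.6 to 16.8 reads, with PEC above both other groups. Ehd3 of PEC mice lay above that of HN mice, and both overlapped with Control.

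Of the 10 genes, Vcam1 and Icam1 had the largest rises in HN mice. Vcam1 (ENSMUSG00000027962, chr3:116109949-116129688, minus strand) had 14.7, 15.6 and 12.7 CPM in Control, 398, 372 and 304 CPM in HN and 217, 220.3 and 162 CPM in PEC mice. The 3 groups did not overlap, and PEC lay between Control and HN. It rose by 4.64 on the log2 scale in HN mice (standard error 0.17, adjusted p = 1.09e-06, edgeR), with a range of 4.33 to 5.19 over the alternatives. In PEC mice it was lower than in HN mice, at 0.558 of their level (log2 fold change -0.84, standard error 0.15, adjusted p = 0.00223, edgeR). Vcam1 is 9893 bases long, and genes within 20% of that length had a median of -0.33. Its difference was -0.46 and still called with the dependence on length removed, and -0.20 and no longer called with length and GC content removed together (adjusted p = 0.336, edgeR). It remained 13.9-fold above Control in PEC mice (log2 fold change 3.80, standard error 0.17, adjusted p = 2.45e-06, edgeR).

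Icam1 (ENSMUSG00000037405, chr9:21015985-21028817, plus strand) had 32.8, 31.2 and 23.7 CPM in Control, 111, 82.0 and 86.6 CPM in HN and 102, 107 and 105 CPM in PEC mice. HN and PEC overlapped, and both lay above Control. It rose by 1.67 on the log2 scale in HN mice (standard error 0.15, adjusted p = 2.98e-05, edgeR) and was 1.84 above Control in PEC mice (standard error 0.15, adjusted p = 2.50e-05, edgeR), and both calls held in all 23 alternatives. Between PEC and HN mice the difference was 0.17 (standard error 0.15, adjusted p = 0.391, edgeR), with -0.02 on library totals and 0.27 with gene length removed. For each Icam1 read, Control mice had 0.447, 0.4997 and 0.536 Vcam1 reads, HN mice 3.601, 4.53 and 3.51, and PEC mice 2.13, 2.05 and 1.54. The groups did not overlap, so that the adhesion genes changed unequally within each library. The dependence on gene length in the PEC libraries also acts on this ratio, since Vcam1 (9893 bases) is longer than Icam1 (4864 bases). The exact permutation test gives p = 0.1 for each pair of groups, two-sided.

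Leukocyte and injured tubule markers rose with both adhesion genes in HN mice, and from HN to PEC mice 4 of 7 leukocyte markers fell, as Vcam1 did, while Icam1 was not called. The 7 leukocyte markers summed to 49.9 to 52.5 CPM in Control, 841 to 1019 in HN and 371 to 443 in PEC mice, with 7 of 7 higher in HN than in Control and 4 of 7 lower in PEC than in HN mice. The macrophage surface gene Adgre1 had a mean of 5.63 ± 0.855 CPM in Control, of 75.0 ± 6.67 CPM in HN and of 17.9 ± 5.85 CPM in PEC mice (SD, n = 3). The 5 injured tubule markers summed to 138 to 295 CPM in Control, 1572 to 1665 in HN and 1289 to 1489 in PEC mice, with 5 of 5 higher in HN than in Control and 1 of 5 lower in PEC than in HN mice. Havcr1, the surface receptor known as KIM-1, was 3.50 ± 1.14, 670.3 ± 49.6 and 458 ± 135 CPM (SD, n = 3). Of 5 pericyte markers, 4 were higher in HN than in Control mice, and the sums were 192 to 223, 401 to 434 and 349 to 364 CPM. The part of these cells in the level of Vcam1 and Icam1 was not tested.

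The endothelial surface and junction genes differed by at most 1.51-fold in any of the 3 comparisons on the TMM scale. Cdh5 and Ehd3 were called in HN against Control, Emcn in PEC against HN and Plvap in PEC against Control mice. Pecam1 (CD31, a junction adhesion molecule used to mark all endothelium; ENSMUSG00000020717, chr11:106654217-106750628, minus strand) had 73.5, 79.4 and 78.1 CPM in Control, 70.4, 73.9 and 67.0 CPM in HN and 59.4, 69.2 and 84.3 CPM in PEC mice. All groups overlapped. It differed by -0.13 on the log2 scale in HN against Control mice (standard error 0.12, adjusted p = 0.447, edgeR) and 0.43 on library totals (adjusted p = 0.0171, edgeR), so that its direction followed the scaling. It was 0.01 in PEC against HN mice (adjusted p = 0.956) and -0.12 in PEC against Control mice (adjusted p = 0.461), and on library totals -0.19 and 0.24. With gene length removed, the difference between PEC and HN mice was 0.25 and not called (adjusted p = 0.133, edgeR).

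Cdh5 (VE-cadherin, the adhesive protein of endothelial adherens junctions; ENSMUSG00000031871, chr8:104101625-104144511, plus strand) had 35.3, 45.7 and 41.6 CPM in Control, 55.6, 55.3 and 56.2 CPM in HN and 38.5, 40.4 and 55.4 CPM in PEC mice. HN lay above Control, and the PEC mice spread from the Control to the HN range, with PEC mouse 3 apart from the other PEC mice. It rose by 0.44 on the log2 scale in HN mice (standard error 0.15, adjusted p = 0.0386, edgeR), and by 1.00 on library totals. The call was lost in 8 of the 23 alternatives, among them gene length removed (0.37, adjusted p = 0.0688) and the fits without Control mouse 2 or 5 or any one of the HN mice (adjusted p from 0.0755 to 0.124, edgeR). The difference between PEC and HN mice was -0.32 (standard error 0.15, adjusted p = 0.125, edgeR) and -0.24 with gene length removed. It was called in 6 of the 23 alternatives, among them library totals (-0.51, adjusted p = 0.0267) and the fit without PEC mouse 3 (-0.47, adjusted p = 0.0142, edgeR). Between PEC and Control mice it was 0.13 (adjusted p = 0.506, edgeR), and -0.03 without PEC mouse 3, but it was called in 4 alternatives, with 0.49 on library totals (adjusted p = 0.0274, edgeR).

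Plvap (the diaphragm protein of fenestrated capillaries; ENSMUSG00000034845, chr8:71497765-71511752, minus strand) had 169, 184 and 161 CPM in Control, 151, 145 and 146 CPM in HN and 114, 125 and 147 CPM in PEC mice. Control lay above HN, and HN overlapped with PEC through PEC mouse 3. It differed by -0.22 on the log2 scale in HN against Control mice (standard error 0.10, adjusted p = 0.122, edgeR), with -0.32 and a call with GC content removed (adjusted p = 0.0358). On library totals it was 0.34 and called in the opposite direction (adjusted p = 0.0292, edgeR), as it was in the 3 limma fits (0.32, adjusted p from 0.0297 to 0.0481). It was -0.20 in PEC against HN mice (adjusted p = 0.161, edgeR). This difference was called in 6 of the 23 alternatives, among them library totals (-0.39, adjusted p = 0.02), gene length removed (-0.35, adjusted p = 0.0229) and the fit without PEC mouse 3 (-0.28, adjusted p = 0.0419, edgeR). Leaving out 1 mouse at a time gave -0.28 to -0.12, and the smallest value in the other alternatives was -0.07. It was lower in PEC than in Control mice by -0.41 (standard error 0.10, adjusted p = 0.00922, edgeR), and this call was lost in 7 of the 23 alternatives (library totals with and without mitochondrial genes, upper-quartile factors, the 3 limma fits and the fold rule), at -0.06 on library totals (adjusted p = 0.706). Plvap shares 1819 bases with Gtpbp3 on the other strand, which had 800 to 1896 counts per library against 8376 to 14186 for Plvap, and whether counting used the strand is not given in the sources used here.

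Emcn (endomucin, a sialomucin of capillary and venous endothelium; ENSMUSG00000054690, chr3:137341067-137432185, plus strand) had 57.7, 65.0 and 73.7 CPM in Control, 59.1, 51.3 and 49.8 CPM in HN and 67.1, 70.0 and 104 CPM in PEC mice. All PEC values lay above all HN values, and PEC mouse 3 was far above the other libraries. Between HN and Control mice the difference was -0.30 (standard error 0.17, adjusted p = 0.212, edgeR), and 0.26 on library totals. It rose by 0.59 on the log2 scale from HN to PEC mice (standard error 0.17, adjusted p = 0.0249, edgeR), and the call was lost in 7 of the 23 alternatives, on library totals with and without mitochondrial genes (0.40 and 0.497, adjusted p = 0.0897 and 0.0511), in the 3 limma fits (0.32 to 0.34) and without HN mouse 8 or 12 (0.56 and 0.54, adjusted p = 0.0762 and 0.0785). Leaving out 1 mouse at a time gave 0.39 to 0.70. With gene length removed the difference was 0.77 (adjusted p = 0.00695, edgeR). Between PEC and Control mice it was 0.30 (adjusted p = 0.194, edgeR), but it was called in 7 of the 23 alternatives, at 0.54 to 0.72, with 0.66 on library totals (adjusted p = 0.0101, edgeR). With 1 mouse left out at a time, this difference ranged from 0.085 to 0.41.

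Ehd3 (a membrane-recycling protein that marks glomerular endothelium; ENSMUSG00000024065, chr17:73804134-73832094, plus strand) had 38.5, 50.5 and 59.0 CPM in Control, 39.6, 30.3 and 33.8 CPM in HN and 41.1, 53.2 and 44.8 CPM in PEC mice. HN mouse 4 lay just above Control mouse 2, and all PEC values lay above all HN values. It fell by 0.51 on the log2 scale in HN mice (standard error 0.17, adjusted p = 0.0394, edgeR), whereas on library totals the difference was 0.05. That call was lost in 14 of the 23 alternatives, among them every other scaling by library size run in edgeR (upper-quartile factors, totals with and without mitochondrial genes, endothelial markers), all 3 limma fits and the fits without Control mouse 4 or 5 or HN mouse 8 or 12 (-0.50 to -0.36, adjusted p from 0.0923 to 0.132, edgeR). Between PEC and HN mice it was 0.42 (standard error 0.17, adjusted p = 0.0815, edgeR), but it was called in 4 of the 23 alternatives, with gene length removed (0.69, adjusted p = 0.0106), with length and GC content removed (0.54, adjusted p = 0.0284), with upper-quartile factors (0.55, adjusted p = 0.0325) and without Control mouse 2 (0.42, adjusted p = 0.0458, edgeR). Between PEC and Control mice it was -0.09 (adjusted p = 0.703) and 0.27 on library totals. Of the 4 genes listed as markers of glomerular endothelium, which include Emcn and Ehd3, Ehd3 was the 1 called lower in HN mice and Plat, the tissue plasminogen activator, the 1 called higher (0.57, adjusted p = 0.0405, edgeR). Over all genes tested, 20.7% were called lower and 21.1% higher in that comparison.

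**Figure D3:**
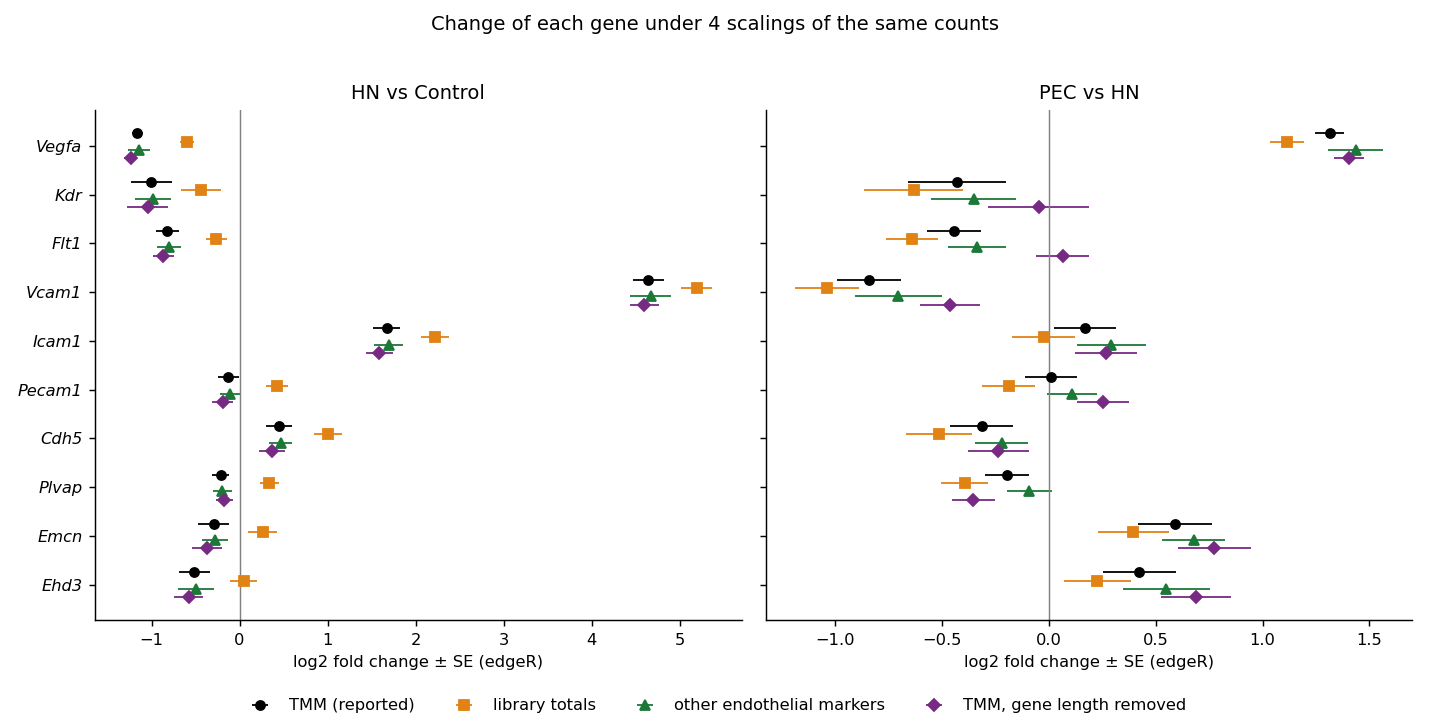
Log2 fold changes of the 10 genes with standard errors from edgeR, in HN against Control (left) and PEC against HN mice (right), under TMM, library totals, scaling to 18 other endothelial markers, and TMM with the dependence on gene length removed. Vegfa stays on its side of 0 in both panels, while Pecam1, Plvap, Emcn and Ehd3 cross 0 between TMM and library totals on the left, and on the right Flt1 crosses 0 with gene length removed and Pecam1 and Icam1 on library totals.

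The order of the 10 genes was read per length, on the FPKM of the deposited table, which divides the counts by gene length and by library total. In Control mice Plvap (63.9 ± 6.23 FPKM) and Vegfa (29.4 ± 0.657 FPKM) were on top and Vcam1 (1.19 ± 0.158 FPKM) at the bottom (SD, n = 3). Between them Pecam1, Emcn, Kdr, Cdh5, Flt1, Ehd3 and Icam1 followed at 9.14 to 4.98 FPKM, each overlapping with the next. In HN mice Vcam1 (43.1 ± 4.92 FPKM) was second behind Plvap (79.5 ± 0.977 FPKM), ahead of Icam1 (22.8 ± 3.11 FPKM) and Vegfa (19.1 ± 1.43 FPKM), which overlapped with each other. The 3 lowest were Kdr, Ehd3 and Flt1 at 6.23, 5.63 and 5.09 FPKM, each overlapping with the next. In PEC mice Vegfa (40.8 ± 0.388 FPKM) was second behind Plvap (59.7 ± 7.79 FPKM), Icam1 and Vcam1 followed at 22.1 and 20.7 FPKM and overlapped, and Kdr and Flt1 were last at 3.97 and 3.23 FPKM.

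Other genes of the pathway were read as lists, whose counts stand against 21.1% of all genes called higher and 20.7% lower in HN against Control mice and 18.3% and 20.6% in PEC against HN mice. Of 7 VEGF family and co-receptor genes tested, HN mice had 3 higher and 1 lower. The ligand Vegfb fell by 0.59 (adjusted p = 0.00505) and was 0.83 higher in PEC than in HN mice (adjusted p = 0.00116, edgeR), the same signs as for Vegfa, although on library totals its first difference was -0.03 and with gene length removed its second was 0.60. The co-receptors Nrp1 and Nrp2 rose by 0.55 and 0.80 in HN mice (adjusted p = 0.00362 and 0.000424, edgeR) and were lower in PEC than in HN mice by -1.17 and -1.25 (adjusted p = 0.00011 and 8.37e-05, edgeR), or by -0.76 and -0.78 with gene length removed. Pgf, placental growth factor, which binds Flt1, rose by 1.70 (adjusted p = 0.0181) from 0.357 ± 0.190 to 1.16 ± 0.274 CPM (SD, n = 3). Of these 7 genes, 1 was higher and 3 were lower in PEC than in HN mice. The median of the list was 0.53 in HN against Control mice.

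Of 6 genes listed under angiopoietin and Tie, 4 were lower and 0 higher in HN mice, with a median of -0.38, but 3 of these 4 changed sign on library totals. The 4 were Angptl4, which is angiopoietin-like rather than an angiopoietin (-1.11, adjusted p = 0.0135), the Tie2 ligand Angpt2 (-0.46, adjusted p = 0.0307), the Tie2 receptor Tek (-0.40, adjusted p = 0.0291) and the phosphatase Ptprb (-0.36, adjusted p = 0.0356, edgeR). On library totals Angptl4 was -0.57, and Angpt2, Tek and Ptprb were 0.09, 0.16 and 0.19. Of 18 other endothelial markers, which include Tek and Ptprb, 2 were higher and 3 lower in HN mice, with a median of -0.03 and with Cd34, a surface sialomucin, as the largest change (0.74, adjusted p = 0.00122, edgeR). The transcription factor Sox18 was called lower (-0.45, adjusted p = 0.0487, edgeR) and was 0.10 on library totals. Between PEC and HN mice 2 of the 18 were higher and 3 lower, against 18.3% and 20.6% of all genes. A difference between these shares was not tested.

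Hypoxia-inducible factors drive Vegfa in many tissues, and 14 genes of that pathway were read. In HN mice 6 were lower and 0 higher than in Control, with a median of -0.14. Adm (adrenomedullin, a vasodilator peptide) fell by 1.32 (adjusted p = 0.000329) and Bnip3 (a mitophagy receptor) by 1.30 (adjusted p = 0.000117), and both were higher in PEC than in HN mice, by 0.60 and 0.51 (adjusted p = 0.0236 and 0.0209, edgeR), or by 0.38 and 0.40 with gene length removed. The oxygen sensors Egln1 and Egln2 fell by 0.65 and 0.49 (adjusted p = 0.000187 and 0.00333, edgeR), although on library totals Egln1 was -0.09 and Egln2 0.07. The other two called lower, Epas1 (-0.30) and Hif1an (-0.33), also turned on library totals, to 0.26 and 0.23. Of the 14, PEC mice had 2 higher and 6 lower than HN mice. Among the 6 were the factor subunits Hif1a (-1.08, adjusted p = 0.0004) and Arnt (-0.70, adjusted p = 0.0121, edgeR). With gene length removed these differences were -0.86 and -0.36. Between HN and Control mice Hif1a and Arnt differed by 0.05 and 0.06 and were not called. The part of this pathway in the change of Vegfa was not tested.

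Of 13 genes of leukocyte adhesion to endothelium, 10 were higher and 0 lower in HN mice, with a median of 2.09. Selp (P-selectin, which endothelium and platelets display) rose by 4.57 (adjusted p = 3.3e-05), from 0.199 ± 0.0709 to 4.77 ± 1.91 CPM (SD, n = 3). The other large rises were of leukocyte genes, the integrin chains Itgam (5.45) and Itgb2 (2.94) and the selectin ligand Selplg (2.61). All 4 were lower in PEC than in HN mice, by -1.02, -1.55, -0.60 and -1.39 in that order (adjusted p = 0.0443, 0.0136, 0.021 and 0.00136, edgeR), and 8 of the 13 were lower and 0 higher in that comparison. Of 5 markers of lymphatic endothelium, 1 was higher in HN mice (Pdpn, a mucin that podocytes and other cells also make, 2.94, adjusted p = 1.26e-06) and 1 lower (Prox1, a transcription factor also found in tubules, -1.16, adjusted p = 0.00348, edgeR).

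**Figure D4:**
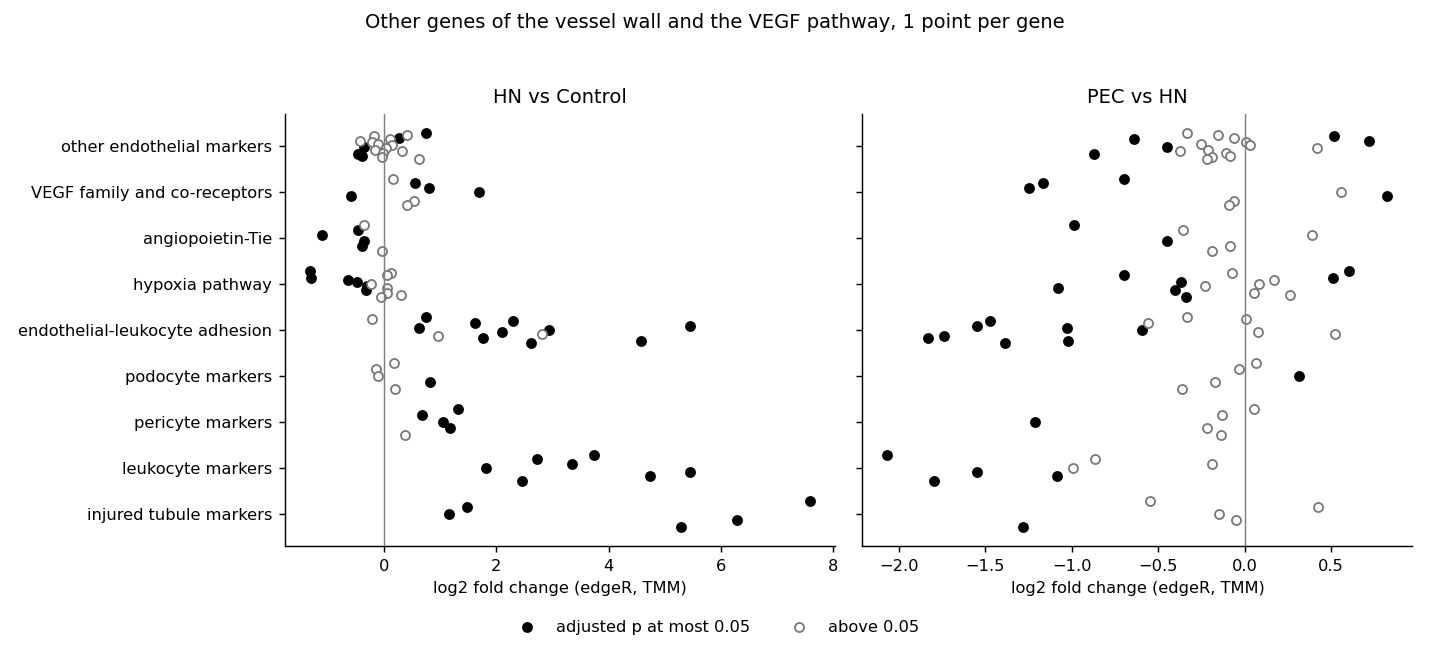
Log2 fold changes (edgeR, TMM) of the genes of 9 lists in HN against Control (left) and PEC against HN mice (right), with 1 point per gene, filled where the adjusted p is at most 0.05; Epo, counted at 0 in all PEC libraries, is not drawn. Adhesion, leukocyte, pericyte and injured tubule genes lie mostly to the right of 0 in HN mice (10 of 13, 7 of 7, 4 of 5 and 5 of 5 called higher, against 21.1% of all genes), while the 18 other endothelial markers lie around 0.

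Genes with the most similar pattern were found by the root mean square difference of log2 CPM, each centred on its mean over the 9 libraries, among 11077 genes with an average log2 CPM of at least 3. For Vegfa they were Atp5k (0.0955), Anapc13 (0.0968) and Epb41 (0.117), where the median over all genes was 0.683. For Vcam1 they were Lyz2 (0.220), Spp1 (0.244) and Col1a1 (0.250), against 2.11. Lyz2, the lysozyme of macrophages and granulocytes, had a mean of 25.8 ± 1.17 CPM in Control, of 685 ± 58.5 CPM in HN and of 324 ± 31.1 CPM in PEC mice (SD, n = 3).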

How the data were processed

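Poly(A) RNA of 9 kidneys was sequenced, 1 library per mouse. The authors deposited whole-number counts per gene and, beside them, FPKM, computed from the counts, gene length and library total. Per the labels, the submitters' processing notes name Bowtie 0.12.2, mm8 and mm9, whereas the table's coordinates are those of GRCm38 (identical to GENCODE release M21 for 51991 of 55144 shared genes). The annotation, counting program and handling of multiply mapped reads are not given in the sources used here. Counts were tested with edgeR 4.0.16 in R 4.3.3 (filterByExpr, TMM, glmQLFit and glmQLFTest, one fit over the 9 libraries), and calls were made at 0.05 after Benjamini-Hochberg adjustment over all genes tested. Standard errors were taken from the F statistic. For 3 against 3 mice, an exact permutation p cannot go below 0.1. Alternatives used DESeq2 1.42.0, limma 3.58.1 on log2(FPKM + 1), other scalings, the fold rule of the study and each mouse left out. Gene length and GC content removed together and scaling to 18 endothelial markers were added after the data had been seen. Replicates differed by more than counting error (chi-square per degree of freedom of 62.8 to 212). The genes and lists were chosen with earlier results of these data known. Beyond the 10 genes, at most the 4 called genes of each list with the largest change in HN against Control mice were to be named. Epas1, Hif1an, Hif1a, Arnt, Epo and Podxl were named after their values were seen, and Tie1, Erg, Cldn5 and Nos3 only as examples of their list. Results of some genes that the lists or the likeness rule select are not reported here. Steps were tested on simulated data.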

Additional observations from a re-analysis of the deposited data

How the results depend on the processing

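Of the 16 calls of the 10 genes over the 3 comparisons, 8 kept their direction and stayed called in all 23 alternatives: Vegfa, Vcam1 and Icam1 in HN against Control, Vegfa in PEC against HN, and Kdr, Flt1, Vcam1 and Icam1 in PEC against Control. For the others, the report gives values of some or all alternatives in which the call was lost. Where no length or GC value stands there, the cause was not tested. Leaving out one mouse at a time, 5 to 7 of the 10 genes were called in HN against Control, 3 to 7 in PEC against HN and 5 in PEC against Control, and the 7 came without PEC mouse 3 (2 higher and 5 lower, against 4 genes with it). Over all genes 7420 to 9196, 6617 to 8623 and 8793 to 9639 were called. No paired analysis was made, because the study assigned mice to the groups at random and describes no pairs of mice. Counting depth was ample for the 10 genes (at least 774 reads per library), and the number of mice limits the precision.

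Of the signs that turned, those of Ehd3 in HN against Control and of Flt1 in PEC against HN belonged to called differences, and the others to differences that were not called. On library totals, totals without mitochondrial genes, limma on log2(FPKM + 1), on log2(FPKM + 0.1) and on log2(FPKM + 1) without the filter, in that order, Pecam1 was 0.43, 0.30, 0.37, 0.40 and 0.37, Emcn 0.26, 0.13, 0.22, 0.24 and 0.22 and Plvap 0.34, 0.21, 0.32, 0.32 and 0.32 in HN against Control, Pecam1 was -0.19, -0.089, -0.20, -0.22 and -0.20 in PEC against HN, and Pecam1 was 0.24, 0.21, 0.17, 0.18 and 0.17 and Ehd3 0.27, 0.24, 0.21, 0.24 and 0.21 in PEC against Control. In the same order without the second, Ehd3 was 0.046, 0.027, 0.033 and 0.027 in HN against Control and Icam1 -0.025, -0.033, -0.034 and -0.033 in PEC against HN. In PEC against HN, Pecam1 was -0.021 without the filter on low counts, and with GC content removed Pecam1 was -0.13 and Icam1 -0.031. With gene length removed, Flt1 was 0.066 in PEC against HN, and Pecam1 was 0.061 and Ehd3 0.11 in PEC against Control. In PEC against Control, upper-quartile factors gave Pecam1 0.039 and Ehd3 0.067, scaling to the other endothelial markers gave Pecam1 0.0020 and Ehd3 0.050, GC content removed gave Cdh5 -0.066 and Vegfa -0.11, and length and GC content removed gave Cdh5 -0.024 and Vegfa -0.059. Leaving out a mouse turned Pecam1 in PEC against HN (range -0.11 to 0.12, with -0.024 without HN mouse 12 and -0.11 without PEC mouse 3), Cdh5 in PEC against Control (-0.033 to 0.23, the first without PEC mouse 3) and Ehd3 in PEC against Control (-0.24 to 0.059, the last without Control mouse 5).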
